A study of Mus musculus with 2 samples.

Results

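The genes described are the NF-κB transcription factor family, its regulators and genes it is known to induce, in cells of the dura, the outermost of the meninges that wrap the brain. They are 34 listed genes of the 19347 in the authors' table of annotated cells, and were chosen by name with earlier results of these data known. The groups are Il33 KO mice (labelled Il33H2B-mcherry-KO), which lack the cytokine IL-33, and their controls, Il33 het mice (labelled Il33H2B-mcherry-het), which keep 1 intact Il33 copy. The series' design text gives the question as the role of IL-33 signalling in this tissue at postnatal day 14. Both groups carry an H2B-mCherry allele at Il33, both were 2 weeks old, and per the labels each library pooled 5 to 8 mice per genotype and sex. Tissue was digested at 37 degrees Celsius for 30 min, and the sort mixed viable cells, gp38+CD31- stroma and CD45+CD11b- lymphocytes in parts of 2:1:1. There was 1 droplet library (10x Genomics) per genotype, so no difference below has a replicate check and no test was made. Genotype, animals, sort and preparation cannot be told apart.

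NF-κB is a dimer of subunits that share the Rel homology domain. In resting cells, inhibitors of the IkB family hold most dimers in the cytoplasm. Receptors such as the tumour necrosis factor receptor, toll-like receptors and the IL-1 and IL-33 receptors activate kinases that mark these inhibitors for destruction, and the freed dimers enter the nucleus. Several of the genes switched on, among them Nfkbia and Tnfaip3, encode proteins that turn the pathway off again, so their RNA is widely read as a short-lived trace of recent activity. In macrophages and other myeloid cells the pathway is known for driving inflammatory cytokines, and in group 2 innate lymphoid cells (ILC2s) it lies downstream of the IL-33 receptor.

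The deposited table holds unique molecular identifier (UMI) counts of 6594 KO and 5950 het cells, with a median of 12203.5 UMIs per KO cell and 12746.5 per het cell. Of all annotated barcodes, 14 occur in both libraries. Il33 itself was at 24.5 CPM in the KO library and 110 CPM in the het library in stromal cluster 0 (CPM, UMIs of a gene per 1000000 UMIs of a class and library), a ratio of 0.224 (0.203 to 0.246). Every interval here is an exact 95% interval for counting error alone: Poisson for a level, conditional binomial for a ratio of KO over het and Clopper-Pearson for a share of cells. UMIs remove PCR copies, but cells of 1 library are not independent animals. Classes are the 22 clusters of the authors, with cluster 9 replaced by its 4 parts under the authors' names, 25 classes in all. Cluster 3 was macrophage-like, with all 10 fixed macrophage markers at least 2-fold above other cells and Cd209f, C1qc and C1qa among its leading genes. Cluster 11 (led by Cd209a, Cd209d, Tnip3 and Ccl17) also had 10 of 10 macrophage markers, beside 6 of 8 monocyte markers. Cluster 13 (with S100a9, Camp and Ngp among its leading genes) had 10 of 10 macrophage and 10 of 10 neutrophil lineage markers. The leading genes of cluster 11 hold none of the fixed macrophage markers, so it is given by number. Those of cluster 13 hold neutrophil lineage markers and no macrophage ones. Because all markers of both lists passed there, it is given by number too. In ILC2s, 7 of 8 fixed ILC2 markers were at least 2-fold above other cells.

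The members' promoters are shown because the set is defined by one regulator and the letters it reads can be printed beside the levels. In RefSeq (GRCm38.p6), 29 of the 34 genes had an entry, and the 250 bases before each start site were searched on both strands for the 10-base NF-κB consensus. It was present for 11 of 29 members (37.9%) and for 1204 of 27025 genes in the table (4.46%). Capitals mark matches, which overlap in Tnip1, and no match in a window says only that these letters are absent from it. The genes shown are 3 whose level differed widely between the libraries, of which Icam1 has no match, and 2 with a match whose ratio lay within 1.5-fold in clusters 3, 11 and 13.

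Nfkbia (chr12:55492648-55492897, minus strand): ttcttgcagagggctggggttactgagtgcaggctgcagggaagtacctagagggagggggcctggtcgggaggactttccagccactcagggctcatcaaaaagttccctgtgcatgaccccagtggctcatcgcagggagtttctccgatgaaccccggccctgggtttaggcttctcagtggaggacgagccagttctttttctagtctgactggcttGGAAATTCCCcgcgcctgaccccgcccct
Tnfaip3 (chr10:19015411-19015660, minus strand): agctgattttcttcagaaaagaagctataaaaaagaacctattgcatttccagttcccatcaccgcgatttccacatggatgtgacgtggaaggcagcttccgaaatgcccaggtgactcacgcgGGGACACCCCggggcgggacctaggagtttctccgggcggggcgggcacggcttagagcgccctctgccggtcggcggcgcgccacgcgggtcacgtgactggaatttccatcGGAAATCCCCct
Icam1 (chr9:21015690-21015939, plus strand): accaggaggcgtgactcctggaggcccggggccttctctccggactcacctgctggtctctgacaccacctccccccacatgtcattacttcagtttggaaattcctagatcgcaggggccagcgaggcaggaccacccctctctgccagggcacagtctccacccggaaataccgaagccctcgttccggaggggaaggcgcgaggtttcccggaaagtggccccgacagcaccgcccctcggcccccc
Nfkbie (chr17:45555450-45555699, plus strand): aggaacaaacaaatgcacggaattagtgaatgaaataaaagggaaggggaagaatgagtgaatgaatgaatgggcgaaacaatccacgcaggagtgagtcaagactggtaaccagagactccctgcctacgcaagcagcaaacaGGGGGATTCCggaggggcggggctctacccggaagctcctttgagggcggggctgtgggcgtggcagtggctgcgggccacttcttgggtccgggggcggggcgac
Tnip1 (chr11:54962941-54963190, minus strand): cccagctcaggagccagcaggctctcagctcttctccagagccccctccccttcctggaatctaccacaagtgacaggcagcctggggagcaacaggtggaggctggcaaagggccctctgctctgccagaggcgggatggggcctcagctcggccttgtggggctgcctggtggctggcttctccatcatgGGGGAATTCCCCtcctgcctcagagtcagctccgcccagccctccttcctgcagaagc

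The Nfkbia window has 1 match, 29 bases before the start site, and the first Tnfaip3 window has 2, at 125 and 12 bases. Nfkbie has 1 match at 106 bases and Tnip1 has 3 overlapping ones from 58 bases. Nfkb2, Rel, Nfkbid, Tnip3, Il6, Sod2 and Tank also had a match in at least 1 window. Tnf, Gpr84 and Mir155hg had none, although their levels differed more than those of Tnip1. The Mir155hg window (84712773 to 84713022) lies before its RefSeq start site but inside the gene as GENCODE places it, from 84703167. The bases before that GENCODE start were not searched.

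Most NF-κB genes were lower in the KO library in clusters 3, 11 and 13, and a part of them by at least 1.5-fold. A gene counted as measured where both libraries together had at least 20 UMIs. In cluster 3 (440 KO and 446 het cells), 33 members were measured and Irg1 was under the minimum. Of these, 31 were lower in KO, 15 by at least 1.5-fold, and 1 (Cd40) was at least 1.5-fold higher. Over all 12934 genes measured there, 6.91% were at least 1.5-fold lower and 3.25% higher. The members' median log2 ratio was -0.56, against -0.01 for all genes. In cluster 11 (240 KO and 196 het cells), all 34 were measured and lower in KO, 17 by at least 1.5-fold and none higher by that much, where 9.6% of 11626 genes were that much lower and 3.73% higher. Their median was -0.53, against -0.07 for all genes. In cluster 13 (180 KO and 167 het cells), 26 of 34 were lower, 11 by at least 1.5-fold and 1 (Mir155hg, from few UMIs) was that much higher, where 6.36% of 11230 genes were lower and 7.8% higher. The median was -0.35, against 0.02 for all genes. Of all genes measured, 52.0% were lower in KO by any amount in cluster 3, 60.3% in cluster 11 and 46.2% in cluster 13. In each of the 3 clusters the members' 1.5-fold lower count stood far above the share of all genes. The list was chosen with earlier results of these data known, so this comparison is a description and not independent support. With a minimum of 100 UMIs, 12 of 28 members passed in cluster 3, 15 of 32 in cluster 11 and 10 of 29 in cluster 13, against 2.5%, 4.64% and 2.24% of genes.

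**Figure D1:**
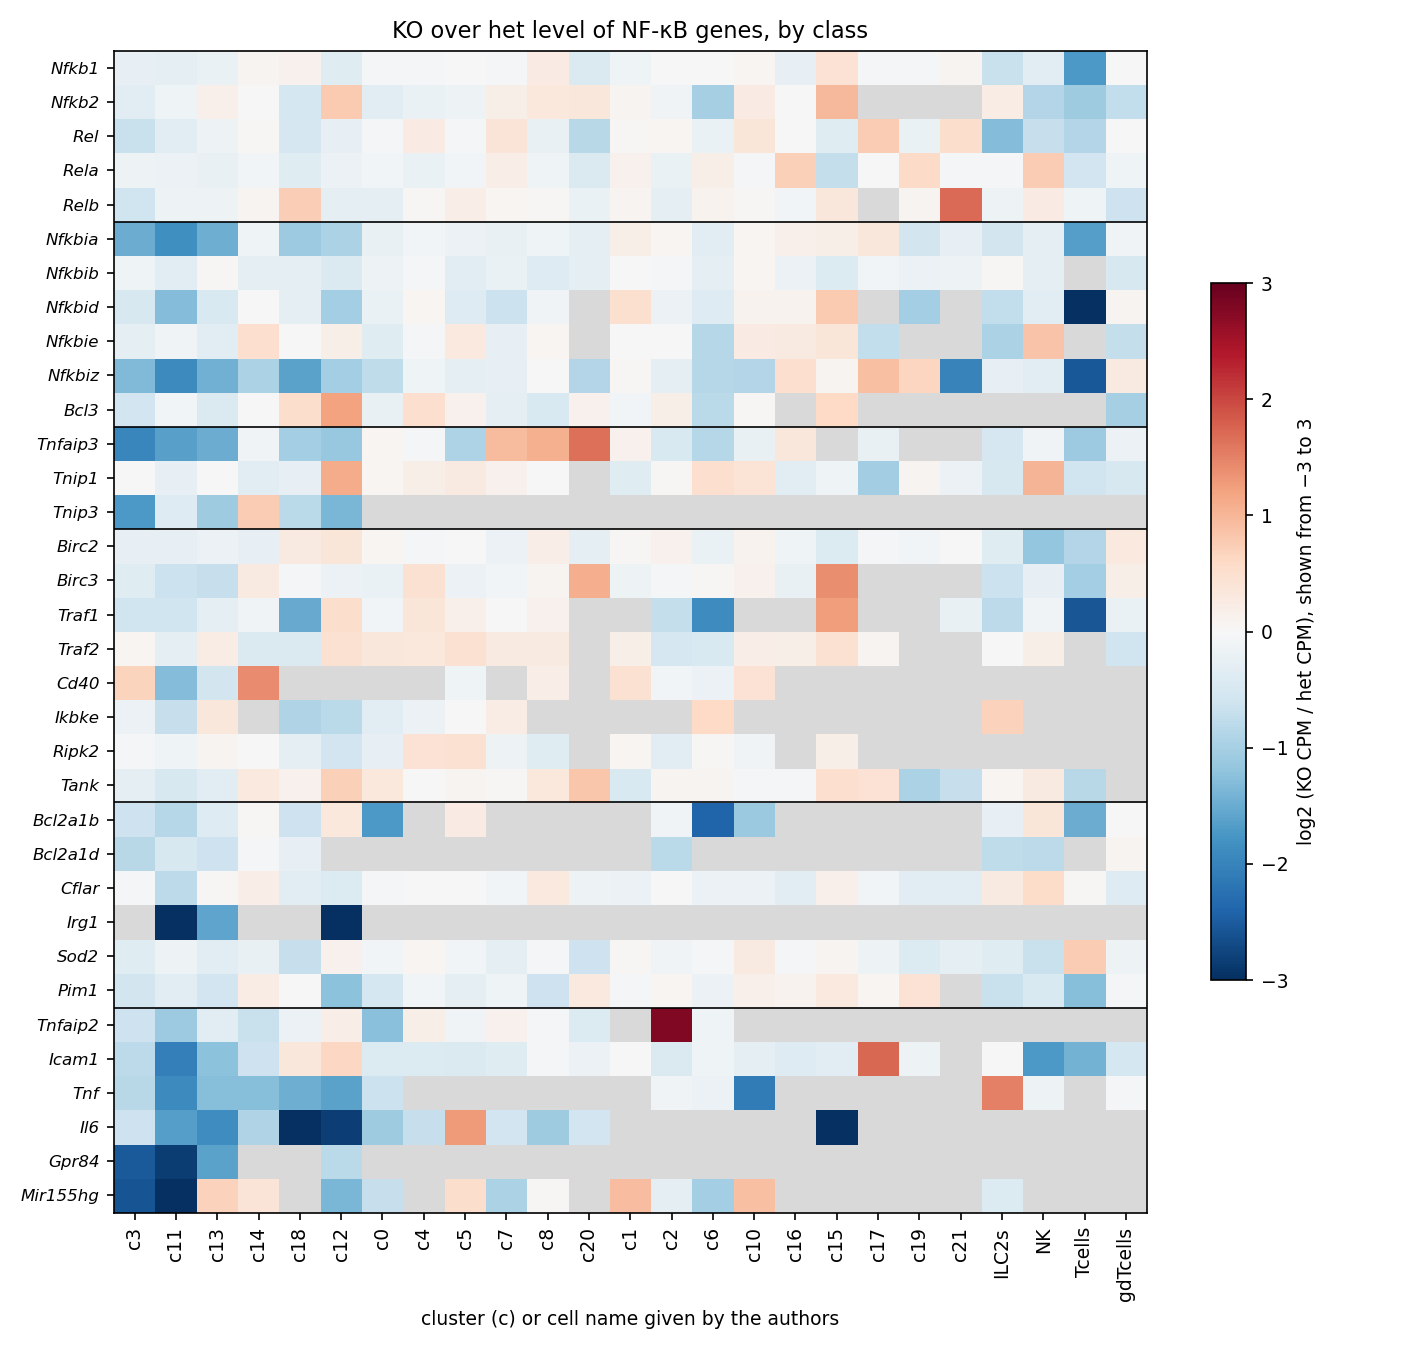
Log2 ratio of KO over het CPM for each gene (rows, lines between roles) in each class (columns); blue is lower in KO, red is higher, grey was not measured. The blue rows of Nfkbia, Nfkbiz and Tnfaip3 run through clusters 3, 11 and 13, while most subunits at the top are paler there. Irg1 in cluster 11 is drawn with 3 counts allowed to the KO library.

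Across clusters 3, 11 and 13, 7 members were at least 1.5-fold lower in KO in each: Nfkbia, Nfkbiz, Tnfaip3, Icam1, Tnf, Il6 and Gpr84. A further 14 were so in 1 or 2 of them, and 13 in none (Nfkb1, Nfkb2, Rela, Nfkbib, Nfkbie, Tnip1, Bcl3, Birc2, Traf2, Sod2, Pim1, Ripk2 and Tank). The share of all genes that were so in all 3 clusters is not at hand. Summed over the 34 genes, cluster 3 held 1833 CPM in KO and 3428 CPM in het, a ratio of 0.535 (0.524 to 0.546). Cluster 11 held 2499 CPM in KO and 5008 CPM in het, a ratio of 0.499 (0.489 to 0.509), and cluster 13 held 1790 and 3144, a ratio of 0.569 (0.553 to 0.587). Nfkbia and Nfkbiz made up a large part of these sums. In het they were at 1131 and 534 CPM in cluster 3, 1204 and 591 in cluster 11, and 828 and 442 in cluster 13. The summed ratios thus do not stand for each member, whose median log2 ratios were -0.56, -0.53 and -0.35.

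The subunits, which form the dimer, stayed within 1.5-fold except Rel and Relb in cluster 3. Rela, which encodes the main activating subunit p65, was at 48.0 CPM in KO and 53.2 CPM in het in cluster 3, 48.9 and 55.4 in cluster 11, and 41.5 and 48.4 in cluster 13. The intervals of these 3 ratios all include 1. Nfkb1, the precursor of p50, had ratios of 0.840 (0.755 to 0.935), 0.817 (0.736 to 0.906) and 0.877 (0.761 to 1.01) in clusters 3, 11 and 13. Rel, the lymphoid and myeloid subunit c-Rel, was at 69.8 CPM in KO and 110 CPM in het in cluster 3 (0.632, 0.565 to 0.706), and nearer 1 in clusters 11 and 13 at 0.805 and 0.896. Relb, a subunit of the non-canonical pathway, was lower in cluster 3 (0.659, 0.563 to 0.771), while its ratios in clusters 11 and 13 were 0.905 and 0.907. Nfkb2, the precursor of p52, had 0.785, 0.922 and 1.11. Of the 15 subunit ratios in these clusters, 2 passed 1.5-fold, both in cluster 3.

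The IkB family split into members with large and small differences. Nfkbia (ENSMUSG00000021025, chromosome 12, 55489410 to 55492647, minus strand, GRCm38) encodes IkBα, the inhibitor resynthesised after each activation. It was at 404 CPM in KO and 1131 CPM in het in cluster 3, a ratio of 0.357 (0.342 to 0.372). In cluster 11 it was at 338 CPM in KO and 1204 CPM in het (0.281, 0.267 to 0.296), and in cluster 13 at 302 and 828 (0.365, 0.341 to 0.390). The intervals of the 2 libraries, for counting error alone, do not meet in any of these clusters. Of all genes measured, 9.04%, 14.5% and 7.07% had a ratio interval below 1 in clusters 3, 11 and 13. Nfkbiz (chromosome 16, 55811375 to 55838899, minus strand), which encodes the nuclear cofactor IkBζ, had 212 CPM in KO and 534 CPM in het in cluster 3, 157 and 591 in cluster 11, and 164 and 442 in cluster 13. Its ratios were 0.397, 0.266 and 0.371. Nfkbid, another nuclear family member, was at 84.5 CPM in KO and 208 CPM in het in cluster 11 (0.406, 0.363 to 0.452) but had 0.718 and 0.725 in clusters 3 and 13. Nfkbib and Nfkbie, cytoplasmic inhibitors, and Bcl3, a nuclear partner of p50 and p52, passed 1.5-fold in none of the 3 clusters. Their ratios ran from 0.669 for Bcl3 in cluster 3 to 1.02 for Nfkbib in cluster 13.

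Among the feedback inhibitors, Tnfaip3 (chromosome 10, 19000910 to 19015657, minus strand), which encodes the ubiquitin-editing enzyme A20, was at 26.2 CPM in KO and 101 CPM in het in cluster 3, a ratio of 0.259 (0.220 to 0.303). It had 66.9 CPM in KO and 208 CPM in het in cluster 11 (0.322, 0.286 to 0.363), and 37.3 and 105 in cluster 13 (0.354, 0.291 to 0.428). Tnip1, a binding partner of A20, was close in both libraries, with 144 KO and 155 het UMIs in cluster 3 (0.988) and 19.7 CPM in each in cluster 13, and with 16.9 CPM in KO and 20.1 CPM in het in cluster 11 (0.841, 0.630 to 1.12). Tnip3, a further partner and one of the genes that lead cluster 11, was at 136 CPM in KO and 177 CPM in het there (0.765, 0.694 to 0.843). In cluster 3 it rested on 8 KO and 28 het UMIs, and in cluster 13 on 66 and 120, of which 26 KO UMIs were in 1 cell. Its ratio in clusters 3 and 13 stood at 1.07 and 1.01 once the cells of highest doublet score were left out.

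The adaptors, kinases and the receptor gave mixed values. Birc3, a ubiquitin ligase at the receptor complex, was at 45.5 CPM in KO and 58.5 CPM in het in cluster 3, 61.7 and 97.1 in cluster 11 (0.635, 0.552 to 0.730), and 45.6 and 74.0 in cluster 13 (0.616, 0.508 to 0.747). Traf1, an adaptor, was lower in clusters 3 and 11 at 0.659 and 0.666 and had 0.831 in cluster 13. Cd40, a receptor that activates the non-canonical pathway, was higher in cluster 3 with 7.00 CPM in KO and 4.39 CPM in het (1.59, 1.01 to 2.54), but lower in cluster 11 with 9.60 CPM in KO and 23.6 CPM in het (0.407, 0.290 to 0.565). Ikbke, an IkB kinase-like enzyme, had 28 KO and 41 het UMIs in cluster 11 (0.623, 0.371 to 1.03). Birc2, Traf2, Tank and Ripk2 stood between 0.717 and 1.17 in all 3 clusters.

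The survival and metabolic targets had moderate ratios, apart from Irg1. Irg1 (Acod1 in current annotation) encodes the enzyme that makes itaconate in activated macrophages. In cluster 13 it had 15.3 CPM in KO and 45.9 CPM in het (0.334, 0.245 to 0.450). In cluster 11 there were 0 UMIs in 240 KO cells and 31 in 196 het cells, 19 of them in 1 cell. With 3 counts allowed to the KO library, the level was 11.3-fold lower in KO. The exact upper limit of its ratio was 0.115, and with the same allowance the ratio was 0.227 without the top cells. Bcl2a1b, an anti-apoptotic BCL2 relative, had 50.5 CPM in KO and 77.6 CPM in het in cluster 3 and 155 and 281 in cluster 11 (0.552, 0.507 to 0.601). Bcl2a1b and Bcl2a1d are near-identical copies, so reads may be split between them and each value is uncertain. Cflar, an inhibitor of caspase-8, was at 55.8 CPM in KO and 96.0 CPM in het in cluster 11 (0.582) but near 1 in clusters 3 and 13, at 0.966 and 1.02. Sod2, the mitochondrial superoxide dismutase, had 0.775, 0.893 and 0.784 in clusters 3, 11 and 13, and Pim1, a survival kinase, had 0.679, 0.784 and 0.676.

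Of the 6 cytokine, adhesion and other targets, 6 were at least 1.5-fold lower in cluster 3, 6 in cluster 11 and 4 in cluster 13. Tnf (chromosome 17, 35199381 to 35202007, minus strand), the cytokine that both induces and follows NF-κB activity, was at 89.3 CPM in KO and 158 CPM in het in cluster 3 (0.564, 0.512 to 0.621). It had 36.3 CPM in KO and 137 CPM in het in cluster 11 (0.265, 0.225 to 0.310), and 46.1 and 112 in cluster 13 (0.413, 0.345 to 0.493). Icam1 (chromosome 9, 21015985 to 21028817, plus strand), an adhesion molecule bound by leukocyte integrins, had 68.2 CPM in KO and 118 CPM in het in cluster 3, 52.5 and 218 in cluster 11 (0.241, 0.211 to 0.274), and 42.7 and 101 in cluster 13. Gpr84, a receptor for medium-chain fatty acids on activated myeloid cells, had 6.86 CPM in KO and 39.1 CPM in het in cluster 3 (0.175, 0.127 to 0.237), and ratios of 0.139 and 0.327 in clusters 11 and 13. In cluster 3, 44 of its 303 het UMIs were in 1 cell. Il6 rested on few UMIs, 39 in KO and 112 in het in cluster 11 (0.318, 0.215 to 0.461), and 6 and 19 in cluster 13. Tnfaip2, induced by tumour necrosis factor, had 0.652, 0.470 and 0.791.

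Mir155hg is the host transcript of the miR-155 precursor, whose arms are shown because the host is a member and the mature miRNAs were not measured. Seed bases 2 to 8 are in capitals, and the positions are those of RefSeq in GRCm38.p6.

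mmu-miR-155-5p (chr16:84714143-84714165, plus strand): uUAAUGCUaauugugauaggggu
mmu-miR-155-3p (chr16:84714182-84714202, plus strand): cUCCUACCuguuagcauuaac

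The host transcript had 3.56 CPM in KO and 28.5 CPM in het in cluster 11, a ratio of 0.125 (0.0741 to 0.200), and 0.960 and 5.81 in cluster 3 (0.165, 0.0629 to 0.369). In cluster 13 it rested on 13 KO and 7 het UMIs, 8 of the KO ones in 1 cell, and its ratio of 1.61 had an interval from 0.597 to 4.76.

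**Figure D2:**
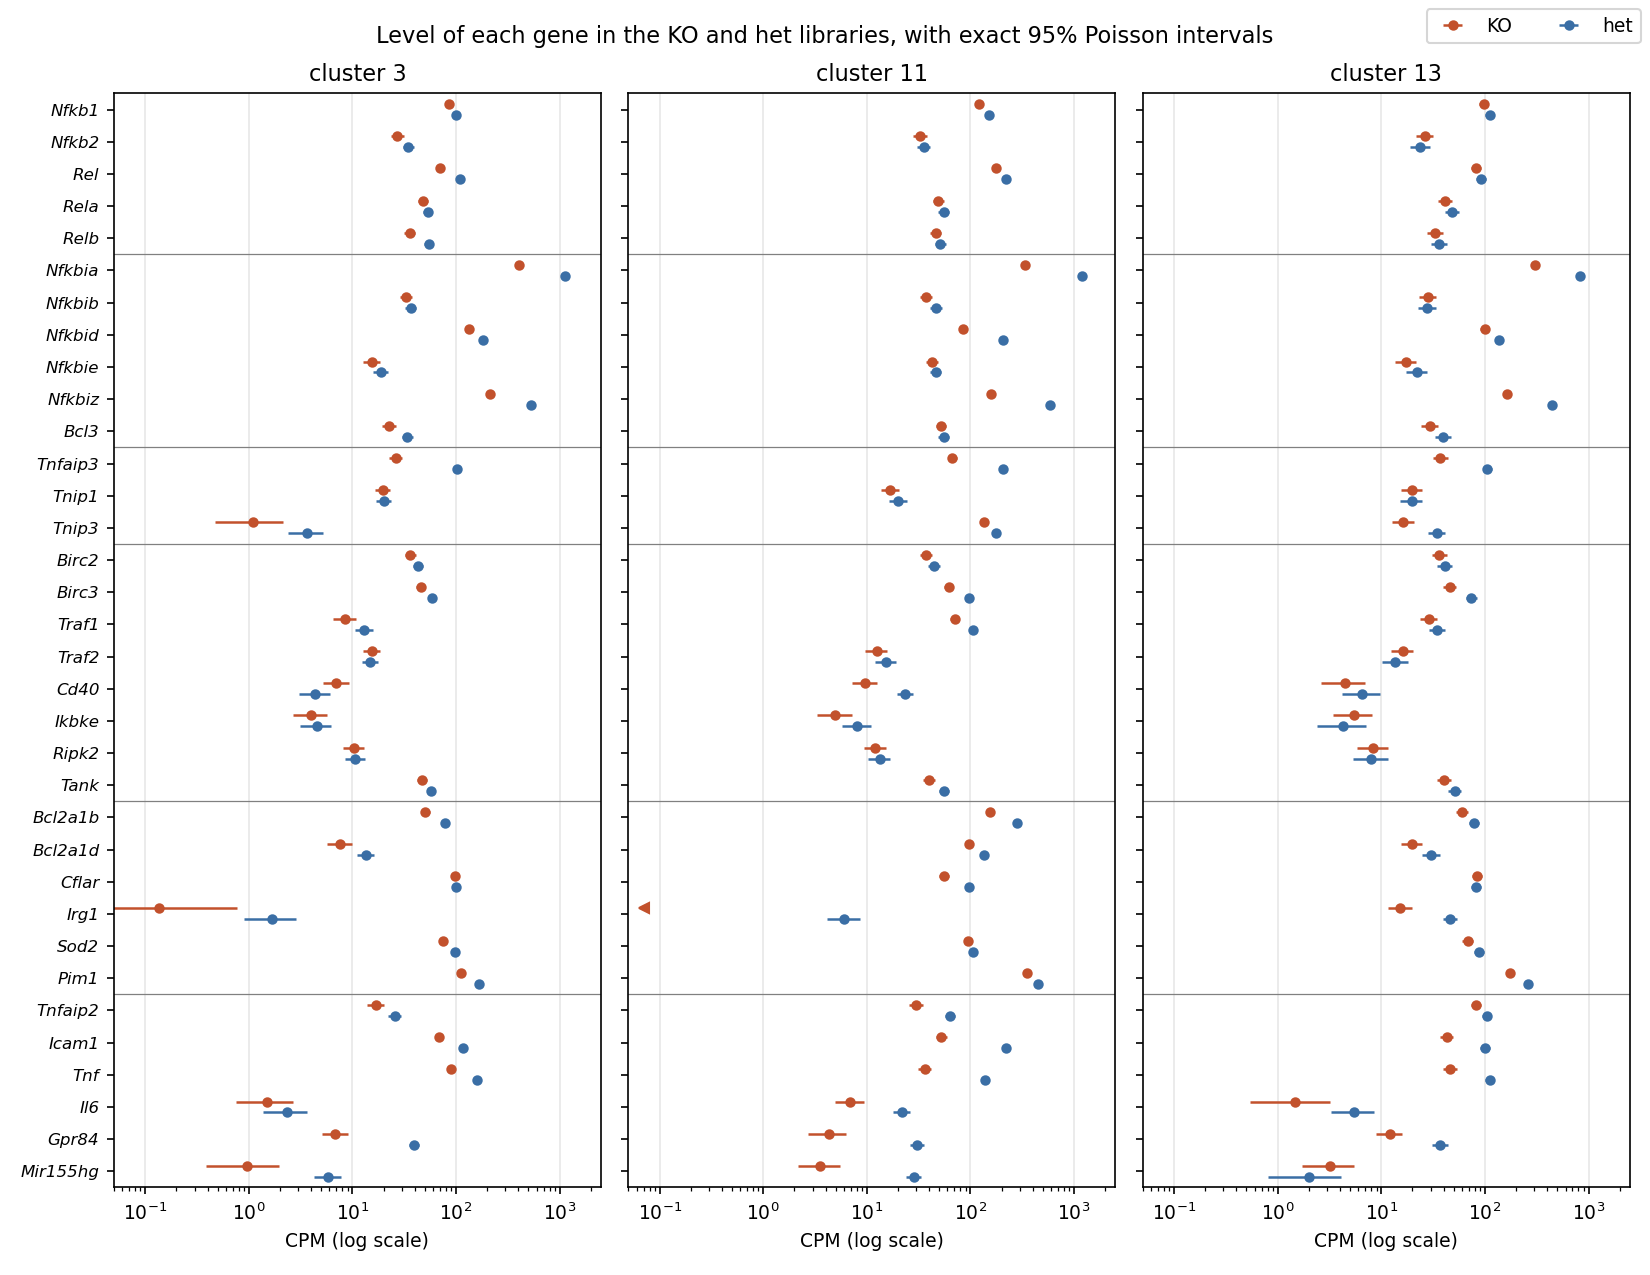
CPM (log axis) of each gene in KO (orange, upper point) and het (blue, lower point) in clusters 3, 11 and 13, with exact 95% Poisson intervals; an arrow marks 0 UMIs, and the bar of Irg1 in cluster 3 is cut at the axis. Nfkbia stands at 404, 338 and 302 CPM in KO, to the left of 1131, 1204 and 828 CPM in het, while Rela overlaps in all 3 panels.

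Per cell, the median and both quartiles of the members' sum were lower in KO in clusters 3, 11 and 13. Nfkbia and Nfkbiz weigh heavily in this sum too. The summed UMIs of the 34 genes per 10000 UMIs of a cell had a median of 16.3 in KO and 34.1 in het cells of cluster 3, with quartiles of 12.2 and 22.5 in KO and 22.2 and 48.7 in het. In cluster 11 the median was 20.3 in KO and 44.0 in het, and in cluster 13 it was 15.1 and 29.4. The upper quartile of KO cells lay close to the lower quartile of het cells in clusters 3 and 11, while in cluster 13 the het cells were spread from 11.1 to 46.7 between their quartiles, against 9.36 to 23.6 in KO, and the 10th percentile was 5.81 in KO and 5.57 in het. Of 440 KO cells in cluster 3, 38 (8.64%, 6.18 to 11.7) lay above the het median, as did 23 of 240 (9.58%, 6.17 to 14.0) in cluster 11 and 23 of 180 (12.8%, 8.28 to 18.6) in cluster 13. Above the het 90th percentile were 2 KO against 45 het cells in cluster 3, 0 against 20 in cluster 11 and 2 against 17 in cluster 13. The count of 0 in cluster 11 allows a share of up to 1.53% of KO cells.

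**Figure D3:**
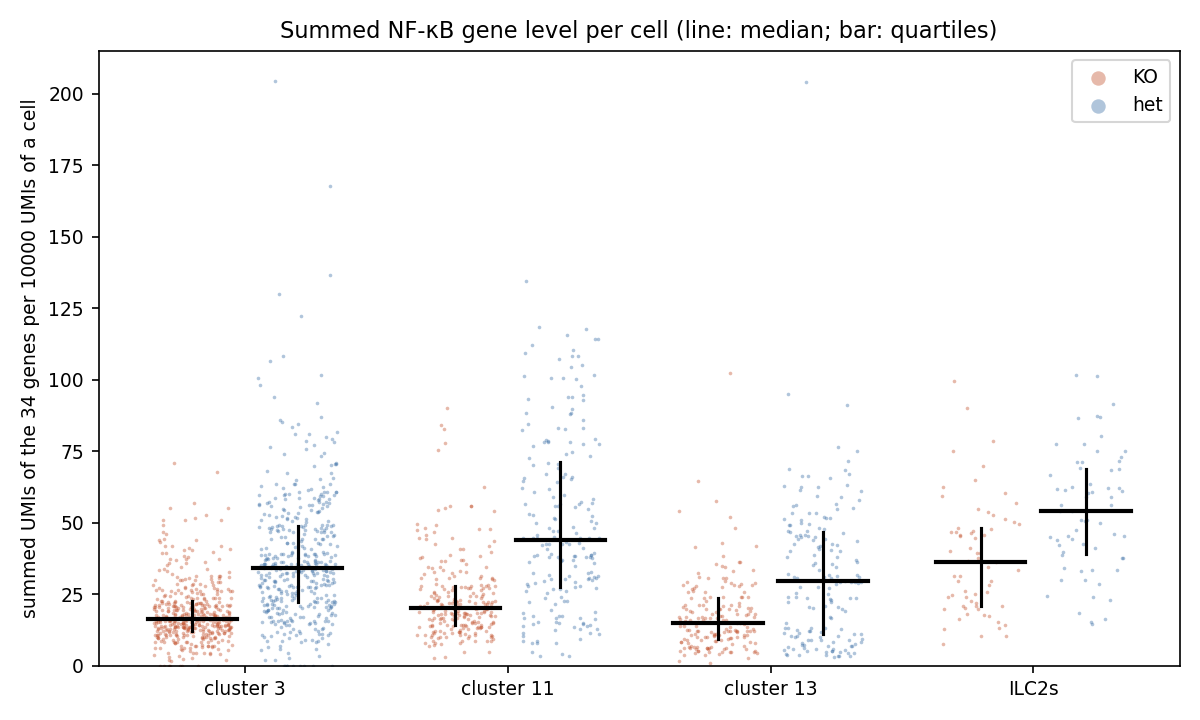
Summed UMIs of the 34 genes per 10000 UMIs of each cell (points), with the median (line) and quartiles (bar), for KO (orange, left) and het (blue, right). The KO medians of 16.3, 20.3, 15.1 and 36.2 lie below the het medians of 34.1, 44.0, 29.4 and 54.2 in clusters 3, 11, 13 and ILC2s. Genes with high levels weigh most in the sum.

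The number of members detected in a cell was closer than their sum, with a median of 12 in KO and 14 in het cells of cluster 3, 16 and 21 in cluster 11, and 13 and 15 in cluster 13. Median depth was 13590 UMIs in KO and 13928 in het in cluster 3, 19572 and 23815.5 in cluster 11, and 19736.5 and 18130 in cluster 13. After each cell was thinned to 1000 UMIs, the median summed UMIs were 2 in KO and 3 in het in cluster 3, 2 and 4 in cluster 11, and 1 and 3 in cluster 13. The difference thus also appeared at equal depth per cell.

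Nfkbia was common in both libraries but held at fewer copies per KO cell. In cluster 3 the median cell had 4 UMIs in KO and 18 in het, the 90th percentile was 16 in KO and 38 in het, and the highest cell had 51 and 87. In cluster 11 the medians were 4.5 in KO and 27 in het, and in cluster 13 they were 3 and 12. At least 3 UMIs were found in 64.1% of KO and 88.3% of het cells in cluster 3, 64.6% and 87.2% in cluster 11, and 54.4% and 71.3% in cluster 13. Nfkbiz had a median of 2 UMIs in KO in each of the 3 clusters, against 8, 14 and 6 in het in clusters 3, 11 and 13. Tnfaip3 was present in 26.6% of KO and 56.5% of het cells in cluster 3, 57.5% and 77.6% in cluster 11, and 39.4% and 56.3% in cluster 13. In stromal cluster 0, with median depths of 18094 UMIs in KO and 19085 in het, the share was 4.68% in KO and 4.17% in het.

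**Figure D4:**
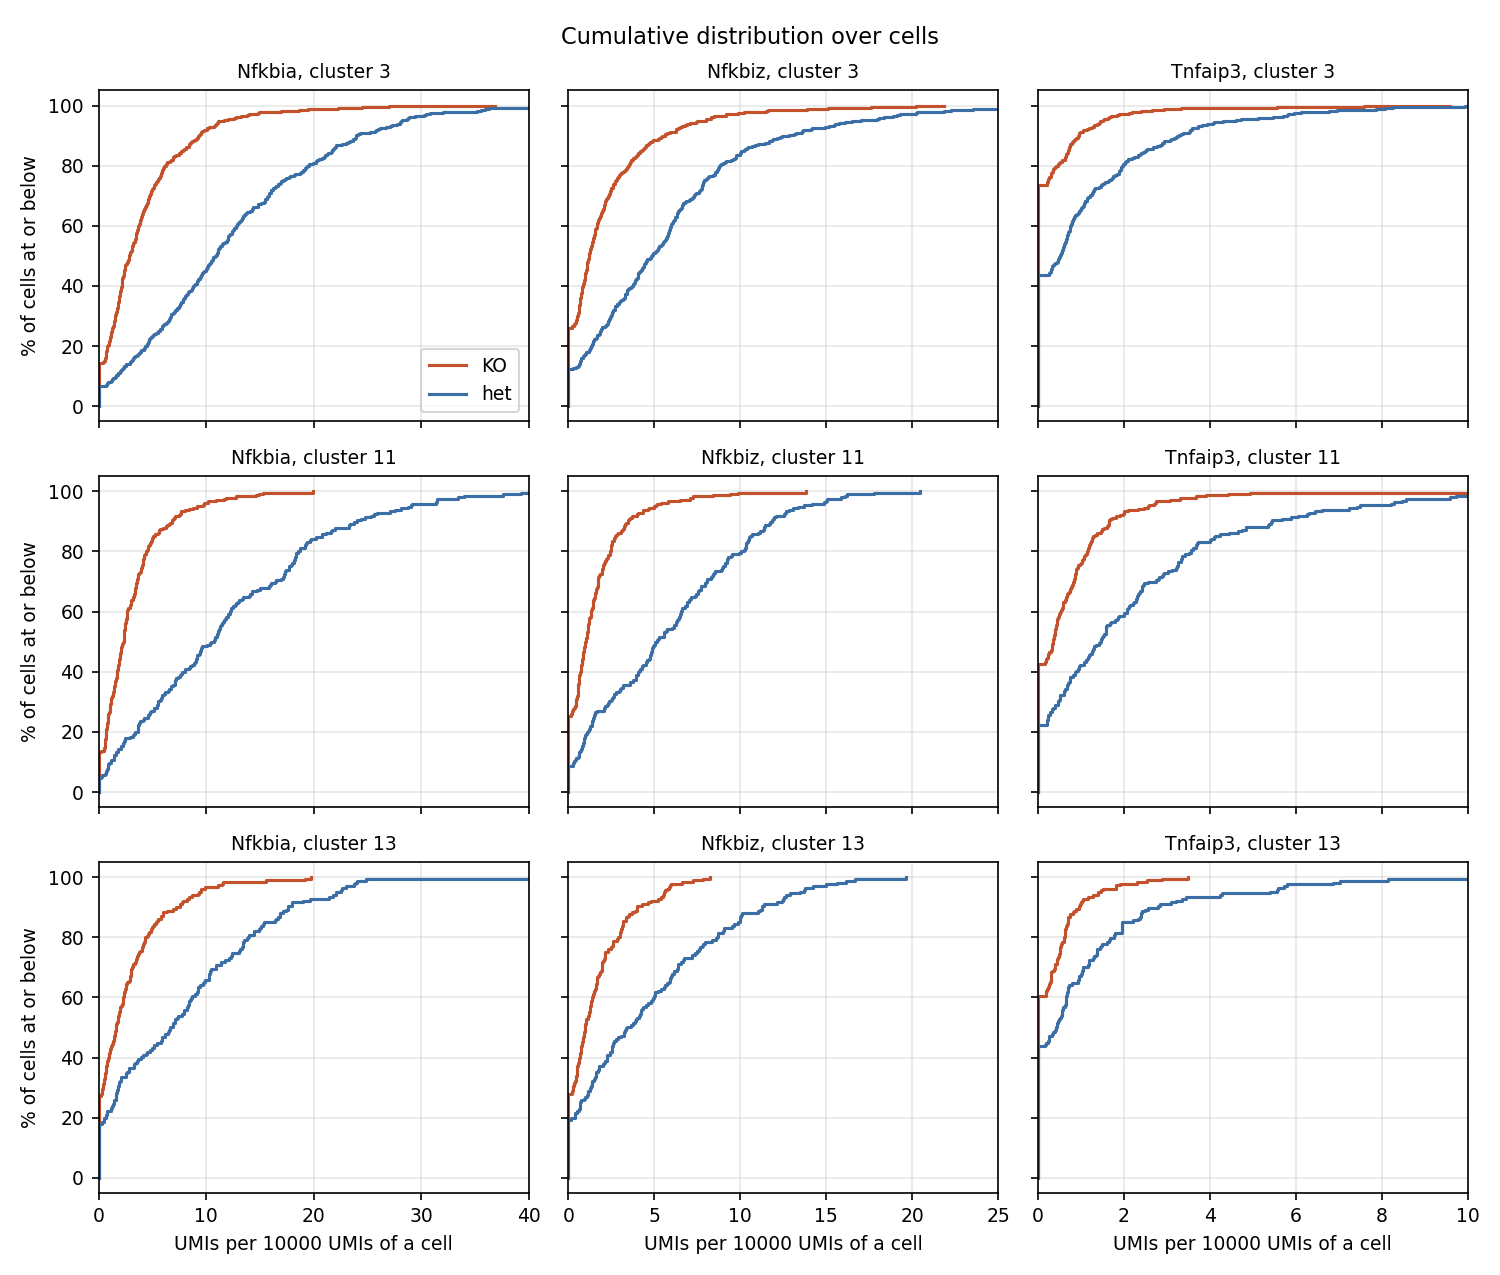
Share of cells (%) at or below each level, in UMIs per 10000 UMIs of a cell, for Nfkbia, Nfkbiz and Tnfaip3 (columns) in clusters 3, 11 and 13 (rows), KO orange and het blue. KO curves lie above and to the left, and their height at 0 is the share of cells with no UMI; for Tnfaip3 in cluster 3, 26.6% of KO and 56.5% of het cells are above 0.

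The share of cells with a UMI differed widely between members. A Tnf UMI was found in 49.3% of KO and 64.3% of het cells of cluster 3, 35.0% and 69.4% in cluster 11, and 37.8% and 56.3% in cluster 13, against 0.866% and 1.22% in cluster 0. The top 10% of cells held 58.8% of Tnf UMIs in KO and 43.8% in het in cluster 11. Gpr84 was seen in 7.05% of KO and 23.8% of het cells of cluster 3, against 0.433% and 0.203% in cluster 0. Irg1 in cluster 13 was seen in 22.2% of KO and 29.9% of het cells, and cells with at least 3 of its UMIs made up 2.78% of KO and 12.6% of het. In cluster 0 an Irg1 UMI was in 0.0866% of KO and 0.102% of het cells, and a Tnip3 UMI in 0.173% and 0.305%. Tnip3 in cluster 13 was in 8.89% of KO and 8.38% of het cells, and among cells with a UMI its median level was 0.663 per 10000 in KO and 2.52 in het.

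Within a library, 7 members were set against the summed level of the other 33 across cells. In cluster 11, Spearman's rho of Tnfaip3 with that sum was 0.42 over 240 KO cells and 0.82 over 196 het cells, and for Icam1 it was 0.33 in KO and 0.72 in het. For Nfkbia it was 0.40 in KO and 0.62 in het in cluster 3, 0.49 and 0.78 in cluster 11, and 0.38 and 0.68 in cluster 13. Nfkbiz and Tnf also had the higher rho in het in these 3 clusters, but Cflar in cluster 3 had 0.20 in KO and 0.17 in het. Rela stayed between 0.07 and 0.18 in both libraries of all 3 clusters. Cells of 1 library share its preparation and its depth, so these values are a description with no test. Nfkbia, Nfkbiz, Tnfaip3, Tnf and Icam1 had lower counts in KO, and rho was not taken at matched counts. How far low counts lower rho was not tested, so a lower rho in KO is not read as less joint expression.

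Cells labelled female and male by the authors come from different mice of the same library. In 12544 of 12544 cells the female label goes with at least 1 Xist UMI and the male label with none, so a shallow female cell can be labelled male. In cluster 3, 25 of the 30 members measured in both were lower in KO in both and 1 was higher in both. In cluster 11 the counts were 28 and 0 of 33, and in cluster 13 they were 20 and 1 of 30. Nfkbia had 0.394 in female and 0.318 in male cells in cluster 3, 0.330 and 0.211 in cluster 11, and 0.380 and 0.347 in cluster 13. At least 1.5-fold lower in both were 7 members in cluster 3, 14 in cluster 11 and 9 in cluster 13, and Nfkbia, Nfkbiz, Tnfaip3, Icam1, Tnf and Gpr84 were among them each time. No share over all genes is at hand for these counts in both sexes, so they describe the members alone. Rel in cluster 3 had 0.864 (0.743 to 1.00) in female and 0.437 (0.368 to 0.516) in male cells. The makeup of cluster 11 was uneven, with 124 female and 116 male KO cells against 131 and 65 het cells.

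**Figure D5:**
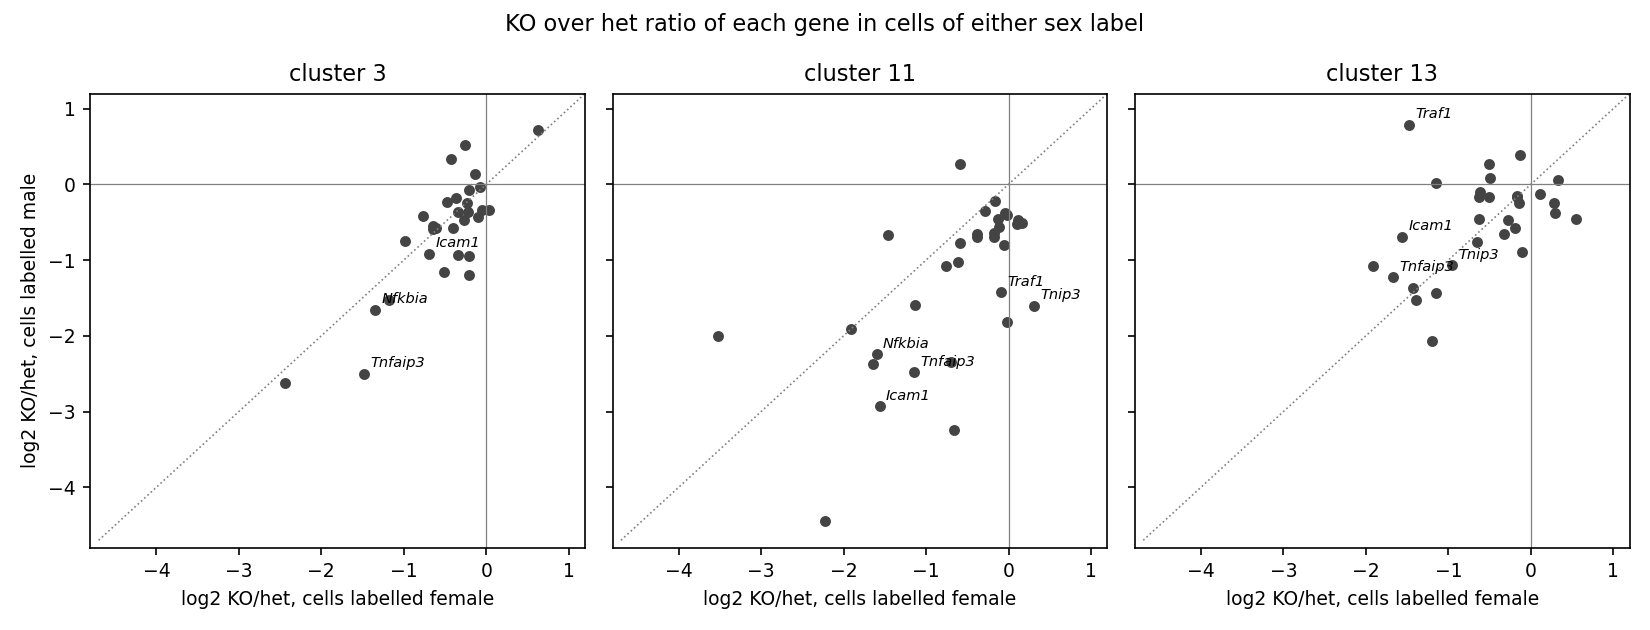
Log2 ratio of KO over het in cells labelled female (x axis) and male (y axis) for each gene with at least 20 UMIs in both, in clusters 3, 11 and 13; the dotted line marks equal ratios. Most points lie in the lower left corner, where both are lower in KO, and Tnip3 in cluster 11 and Traf1 in cluster 13 lie outside it.

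ILC2s, lymphocytes that carry the IL-33 receptor, also had lower members in KO. The receptor gene Il1rl1 was at 449 CPM in 65 KO cells and 537 CPM in 66 het cells, while clusters 3, 11 and 13 held between 5.67 and 25.4 CPM in KO and between 10.2 and 18.5 in het. Of 26 members measured in ILC2s, 20 were lower in KO, 8 by at least 1.5-fold and 2 (Tnf and Ikbke) higher by that much. Over all 5759 genes, 54.4% were lower in KO, 14.1% at least 1.5-fold lower and 9.05% that much higher. The 8 members under the minimum were Tnfaip2, Tnip3, Bcl3, Il6, Gpr84, Irg1, Cd40 and Ripk2. Nfkb1 was highest in this class in both libraries, at 591 CPM in KO and 945 CPM in het (0.625, 0.550 to 0.710). Rel had 66.2 CPM in KO and 164 CPM in het (0.405, 0.277 to 0.581), and Pim1 413 and 658 (0.628, 0.538 to 0.732). Nfkbia was at 911 CPM in KO and 1342 CPM in het (0.679, 0.611 to 0.753), Tnfaip3 at 396 and 561 (0.705, 0.600 to 0.827), and Nfkbiz at 383 and 451 (0.849, 0.716 to 1.01). Nfkbid, Nfkbie and Traf1 had 0.600, 0.516 and 0.583, and Birc3 and Bcl2a1d had 0.641 (0.391 to 1.03) and 0.594 (0.339 to 1.01). Of these 8 members at least 1.5-fold lower, Rel, Nfkbid, Birc3, Traf1 and Bcl2a1d were also so in cluster 3, 11 or 13, and Nfkb1, Nfkbie and Pim1 in none of the 3. Of 17 members measured in both sexes, 13 were lower in KO in both, and Rel and Birc3 by at least 1.5-fold in both. Here too no share over all genes is at hand. Tnfaip3 had 0.458 (0.354 to 0.587) in female cells and 0.999 (0.805 to 1.24) in male cells. Tnf was higher (2.83), with 28 KO and 12 het UMIs, but 18 of the KO ones were in 1 cell. Depth differed too, with medians of 8564 UMIs in KO and 10098 in het, and the summed ILC2 markers were at 4187 CPM in KO and 5909 CPM in het.

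The other classes were uneven. In monocyte-like cluster 18, 10 of 30 measured members were at least 1.5-fold lower and 1 higher, where 12.7% of 8015 genes were lower and 5.43% higher. Nfkbia there had 185 CPM in KO and 396 CPM in het (0.468, 0.399 to 0.547) and Nfkbiz 45.7 and 140 (0.326, 0.238 to 0.441). In dendritic cell-like cluster 14, 5 of 31 were lower and 2 higher, where 10.8% of 9895 genes were lower and 6.57% higher, and the members' sum was 2381 CPM in both libraries. Cd40 was higher in that cluster, with a ratio of 2.65 (1.87 to 3.81), while Nfkbiz was at 23.5 and 45.4. The sexes went apart in cluster 14, with 10 of 30 measured members at least 1.5-fold lower and 1 higher in female cells (median log2 ratio -0.36) but 3 of 28 lower and 8 higher in male cells (median 0.27). In cluster 18, 10 of 29 were lower in female cells (median -0.44) and 4 of 22 in male cells (median -0.04). These differences between the sexes were not tested, and no share over all genes is at hand for the counts within each sex. In B cell-like clusters 1 and 2 the summed ratios were 1.03 and 0.979, and in the blood endothelial-like cluster 8 it was 0.970. The authors' Tcells gave 0.388 (0.346 to 0.434) from 32 KO and 30 het cells. In cluster 12, which mixes mast cell and progenitor markers, the summed ratio was 0.657, but median depth was 9945.5 UMIs in KO and 17454 in het. Over the 25 classes Nfkbiz was at least 1.5-fold lower in 12 of the 25 in which it was measured, and Nfkbia in 6 of 25.

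A list of 34 upstream signalling genes (receptors, adaptors and kinases of the pathway) stayed near 1, with median log2 ratios of 0.07, -0.09, 0.10 and 0.02 in clusters 3, 11, 13 and ILC2s. At least 1.5-fold lower were 1 of 34 measured in cluster 3, 1 of 34 in cluster 11, 1 of 33 in cluster 13 and 4 of 19 in ILC2s. Of all genes measured in these classes, 6.91%, 9.6%, 6.36% and 14.1% were so. Tlr2, a toll-like receptor that senses bacterial lipoproteins, was the 1 in cluster 3, at 59.0 CPM in KO and 94.7 CPM in het. A list of other induced cytokines and enzymes had medians of -0.43, -0.77, -0.30 and -0.79, with 10 of 23, 16 of 26, 7 of 26 and 6 of 10 measured genes at least 1.5-fold lower. The chemokine gene Cxcl2 was at 294 CPM in KO and 1939 CPM in het in cluster 3 (0.151, 0.145 to 0.159), 139 and 1037 in cluster 11, and 240 and 1139 in cluster 13. Ccrl2, a chemokine-binding receptor, had 0.252 in cluster 3 and 0.232 in cluster 13. Ccl5, a T cell chemokine, was higher in cluster 11, at 293 CPM in KO and 71.8 CPM in het.

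Other gene groups were near 1 in some of these classes and lower in KO in others, and their part in the result was not tested. Immediate early genes, which tissue digestion is known to induce, had medians of -0.10, -0.42, -0.09 and -0.40 in clusters 3, 11, 13 and ILC2s. At least 1.5-fold lower were 4 of 24, 6 of 23, 1 of 24 and 9 of 22, where 6.91%, 9.6%, 6.36% and 14.1% of all genes were so. Nfkbia in cluster 3 differed with the number of 5 such genes (Fos, Fosb, Jun, Egr1 and Atf3) seen in a cell. In cells with all 5 it was at 415 CPM in KO and 1194 CPM in het (0.347, 0.332 to 0.363), in cells with 3 or 4 at 362 and 769 (0.470, 0.408 to 0.541). In the 36 KO and 25 het cells with 0 to 2, with median depths of 3291 and 2884 UMIs, it was at 129 and 118 from 17 and 11 UMIs (1.10, 0.485 to 2.59). In cluster 13, cells with 0 to 2 had Nfkbia at 62.2 CPM in KO and 279 CPM in het (0.223, 0.137 to 0.350), from 24 and 104 UMIs. In cluster 11 the Nfkbia ratio in such cells was 0.558 (0.195 to 1.52), from 8 and 11 UMIs. Among cells with all 5 genes, 15 of 33, 16 of 34 and 14 of 34 measured members were at least 1.5-fold lower in clusters 3, 11 and 13. Over all cells the counts were 15, 17 and 11, and for the cells with all 5 no share over all genes is at hand. Heat shock genes had medians of 0.04, -0.11, -0.04 and -0.50, and interferon-response genes -0.05, -0.58, -0.63 and -0.01.

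Markers of other cell types also differed, and their part was not tested. In cluster 13 the summed granulocyte progenitor markers were at 201 CPM in KO and 723 CPM in het, all 5 of 5 at least 1.5-fold lower, and the mast cell or basophil markers at 22.7 and 254. Its neutrophil lineage markers were level at a ratio of 1.00. Without cells holding at least 3 UMIs of the progenitor or mast cell markers, 11 of 32 measured members were at least 1.5-fold lower there, and 12 of 33 in cluster 3. In cluster 11 fibroblast markers were at 1653 CPM in KO and 3060 CPM in het and arachnoid barrier markers at 651 and 151. In cluster 3 neutrophil lineage markers were at 91.8 CPM in KO and 232 CPM in het. In ILC2s fibroblast markers were at 1014 CPM in KO and 476 CPM in het and B cell markers at 54.9 and 227. The 10% of cells scored highest by Scrublet held 29.8% of KO and 28.7% of het cells of cluster 3, 15.0% and 20.9% of cluster 11, and 39.4% and 34.1% of cluster 13. Without them 14 of 31, 18 of 34 and 13 of 30 measured members were at least 1.5-fold lower in these clusters. Of ILC2s, 3.08% of KO and 16.7% of het cells were among those scored highest. Without these, 7 of 24 members measured in ILC2s were at least 1.5-fold lower. For none of these reduced sets of cells is a share over all genes at hand.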

How the data were processed

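Droplet single-cell RNA sequencing was made from 1 KO and 1 het library of dural meninges. Per the submitters' processing notes, the authors ran Cell Ranger 3.0.2 (build mm10), and the deposited values are raw UMI counts per gene and cell. The authors' cell table gives cluster, library, sex label and percent of mitochondrial UMIs as deposited. Its cell filter was not given in the sources used here. Of its values, 1673 differ from the matrices, 0 of them in the members.

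Counts were summed by class and library and divided by all UMIs there. The sums, not cells, were compared, with a minimum of 20 UMIs, a fold of 1.5 and a floor of 3 counts where a library had 0. A cluster was called X-like from at least 3 fixed markers at least 2-fold above all other cells (pseudocount 5 CPM). Where its leading genes held none of those markers, or all markers of more than 1 list passed, it was given by number. Scrublet (scanpy 1.11.5) called 2 KO and 6 het barcodes, so its calls were not used and only the 10% of cells with the highest score were left out as an alternative. Ratios and intervals (scipy 1.17.1) were tested on simulated data. Values are given for every member measured in clusters 3, 11, 13 and ILC2s that differs or anchors its role, the rest by ranges. From the other lists, genes with at least 100 UMIs and 1.5-fold were named, at most 6 per list and class. Members and lists were chosen with earlier results of these data known. Gene positions are GENCODE M21 (GRCm38). Libraries share 36 barcodes of all those deposited.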

Additional observations from a re-analysis of the deposited data

Results flagged for a closer look

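In 2 members, cells labelled female and male differed from 1 in opposite directions, with intervals for counting error that exclude 1 on each side. The difference between the sexes itself was not tested. Tnip3 in cluster 11 had a KO over het ratio of 1.24 (1.09 to 1.40) in female cells and 0.329 (0.278 to 0.389) in male cells. Traf1 in cluster 13 had 0.359 (0.230 to 0.547) in female cells and 1.73 (1.15 to 2.65) in male cells, and its top cells held 31 of 116 KO UMIs and 25 of 121 het UMIs. Barcodes outside the annotated cells gave no member at least 1.5-fold higher in KO with an interval above 1, while 12 members were at least 1.5-fold lower with an interval below 1, among them Nfkbia at 0.507, Tnfaip3 at 0.453, Tnf at 0.521 and Gpr84 at 0.259. The summed level of the 34 members there was 1047 CPM in KO and 1445 CPM in het. For these barcodes no share over all genes is at hand.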

How the results depend on the processing

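Of 62 counts of lower members under alternatives, 55 stayed within 1.5 times the value in the report, and of 58 medians all kept their sign and 54 stayed within the members' own bounds. No paired analysis was possible because each genotype has 1 library. With a 2-fold threshold the counts were 6 in cluster 3 and 1 in ILC2s. With cells thinned to 1000 UMIs they were 9 in cluster 11 and 3 in ILC2s, where 19 and 7 members were still measured, and the medians were -0.86 in cluster 3 and -0.82 in cluster 13. The median in male cells of cluster 11 was -0.78. Without cells that had 3 or more of the 5 immediate early genes, few UMIs were left: the count was 1 of 2 members in cluster 3 (median -0.84), 4 of 14 in cluster 13 and 2 of 9 in ILC2s, and cluster 11 gave no value, as did ILC2s with all 5 genes. Of 544 ratios of members at least 1.5-fold from 1, 419 stayed within their own interval, 119 left it in the same direction and 6 changed direction, and the cause was not tested. Nfkbia in cluster 3 had 1.10 and Gpr84 in cluster 13 had 1.29 without those cells, Tnip3 had 1.07 in cluster 3 and 1.01 in cluster 13 without the cells of highest Scrublet score, Bcl2a1d in cluster 13 had 1.02 in male cells, and Mir155hg in cluster 13 had 0.138 without cells with an Mki67 or Top2a UMI. Depth limits Il6, Tnip3 and Mir155hg outside cluster 11, Irg1 in clusters 3 and 11, and most members in ILC2s.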
